A study of Rattus norvegicus with 8 samples.

Results

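Interferon-stimulated genes are transcripts that cells make in response to interferons, and 39 of them were followed in outflow veins of rat arteriovenous fistulas (AVFs). They were chosen by name from the known interferon response, with earlier results of these data known. Each of the 39 names stood once among the 32623 genes of the deposited count tables, and all 39 passed the filter on low counts that left 11682 genes for testing. Their counts per library ranged from 62 for Isg20 to 25256 for Mx2.

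The AVFs joined the epigastric vein to the femoral artery of Sprague Dawley rats, and a nanofiber scaffold was wrapped around the vein at surgery. In 4 rats (BAPN 1 to BAPN 4, 3 females and 1 male) the scaffold released β-aminopropionitrile (BAPN), which blocks lysyl oxidases, the enzymes that crosslink collagen and elastin. In the other 4 (Vehicle 1 to Vehicle 4, 2 females and 2 males) the scaffold carried no drug. All veins were taken at day 21, so both groups share the surgery and the scaffold polymers, and no vein without a scaffold was analysed here. Rat ages were not given in the sources used here.

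Total counts were 45039451 to 52241007 in the BAPN libraries and 19548203 to 22442050 in the vehicle libraries, so depth and treatment cannot be told apart by group, and a fit on libraries thinned to equal totals is named where it matters. The veins held the smooth muscle and endothelial transcripts of a vessel wall. All 6 smooth muscle and all 5 endothelial markers tested had log2 fold changes below 0 in BAPN-treated veins, and 4 and 2 of them passed a false discovery rate (FDR) of 0.05, against 9.25% of tested genes called lower. The summed level of 5 leukocyte markers was 2896 to 4757 counts per 1000000 (CPM) with BAPN and 1158 to 3496 CPM with vehicle. These are bulk samples, in which fewer cells of a type and less RNA per cell cannot be told apart.

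Interferons signal through paired receptors and Janus kinases to STAT proteins. Type I and type III interferons activate a complex that holds STAT2 and IRF9 and binds the interferon-stimulated response element (ISRE), and interferon-γ signals to the gamma-activated site (GAS). The induced genes encode further transcription factors, sensors of foreign RNA, enzymes and GTPases that block viruses and other intracellular microbes, and inhibitors that end the response. In vessel walls, both resident cells and infiltrating leukocytes can express them.

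Many promoters of the members carry the letters of 1 or both elements, and 9 of those searched carry neither. Promoter sequences from RefSeq (assembly GRCr8), 250 bases before to 50 bases after the transcription start, were matched by symbol for 31 of the 39 genes, and the promoters of the other 8 were not analysed here. The ISRE was searched as GAAA and GAAAC with any 2 bases between them, on both strands, and the GAS as TTCNNNGAA (N for any base), which reads the same on both strands. ISRE letters stood in 15 of 31 member promoters (48.4%) and in 0.881% of all 33469 rat promoters, and GAS letters in 11 of 31 (35.5%) and 8.87%. The stretches of 6 members are printed here because 4 of them (Ifit3, Irf1, Samhd1 and Ifi47) rose in BAPN-treated veins, and the other 2 (Irf7 and Oas1a) hold ISRE letters but did not pass the test. Each is read along the strand of its gene, 5′ to 3′, with motif letters in capitals.
Ifit3, ISRE on the reverse strand, chr1:241527251-241527321 (plus strand): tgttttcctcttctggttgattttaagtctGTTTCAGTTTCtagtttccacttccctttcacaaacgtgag
Irf1, GAS, chr10:38417763-38417831 (plus strand): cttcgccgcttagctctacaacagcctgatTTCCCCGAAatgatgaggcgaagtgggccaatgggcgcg
Samhd1, GAS, chr3:166214525-166214593 (minus strand): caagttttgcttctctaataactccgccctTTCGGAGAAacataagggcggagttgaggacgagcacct
Ifi47, GAS at both marked places, chr10:33798502-33798686 (plus strand): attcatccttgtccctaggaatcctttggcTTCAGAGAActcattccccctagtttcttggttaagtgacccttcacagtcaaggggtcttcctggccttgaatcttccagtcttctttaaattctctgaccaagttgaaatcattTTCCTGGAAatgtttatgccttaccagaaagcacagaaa
Irf7, ISRE on the reverse strand, chr1:205800053-205800123 (minus strand): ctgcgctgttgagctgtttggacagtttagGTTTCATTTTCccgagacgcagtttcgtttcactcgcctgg
Oas1a, GAS and then ISRE, chr12:41330237-41330465 (plus strand): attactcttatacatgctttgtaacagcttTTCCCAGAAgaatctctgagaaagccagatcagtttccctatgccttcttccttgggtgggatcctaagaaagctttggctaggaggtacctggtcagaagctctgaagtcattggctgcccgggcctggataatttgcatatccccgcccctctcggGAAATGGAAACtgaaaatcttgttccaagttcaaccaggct

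One library stood apart in these genes. BAPN 2, from a female rat, had the highest CPM of all 8 libraries in 35 of 39 members (89.7%), against 8.41% of all tested genes. In 20 of 39 members (51.3%) its CPM was more than 1.5 times the highest of the other 7 libraries, against 64 of 11682 tested genes (0.548%). The median member lay 1.19 above the vehicle mean (log2 scale) in BAPN 2, and 0.49, 0.15 and 0.40 above it in BAPN 1, BAPN 3 and BAPN 4. It lay at -0.17, 0.13, -0.18 and 0.36 in Vehicle 1 to Vehicle 4, so that the groups overlapped, with BAPN 3 below Vehicle 4. BAPN 3 was the lowest BAPN library in 29 of 39 members, and Vehicle 4 the highest vehicle library in 23. For all tested genes the same median lay between 0.00 and 0.04 in every library.

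**Figure D1:**
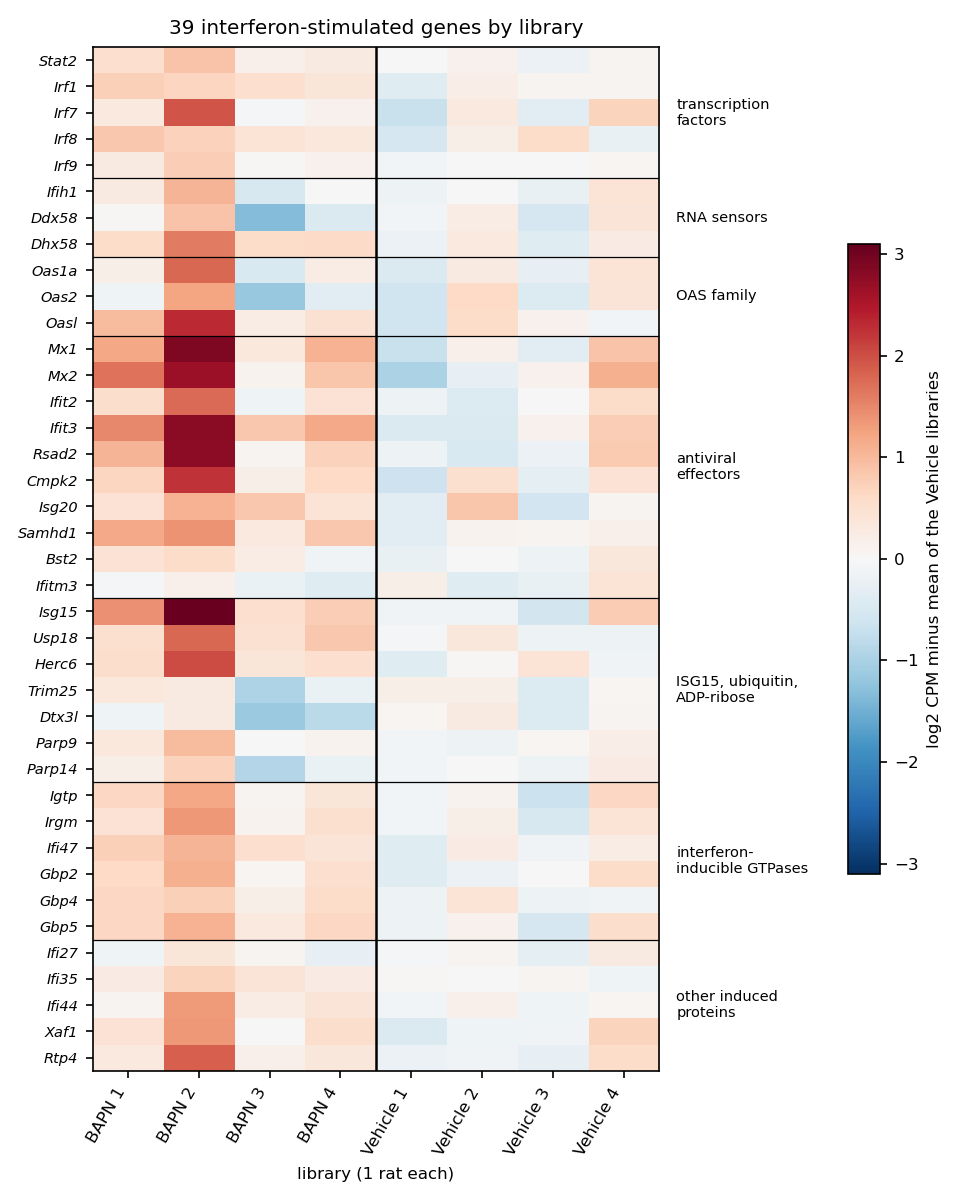
Each row is 1 of the 39 genes, grouped by role, and each column 1 library; color gives log2 CPM minus the mean of the 4 vehicle libraries, with red higher. The BAPN 2 column is the reddest in most rows, most of all for Isg15, Mx1, Ifit3, Rsad2 and Mx2, while BAPN 3 is below the vehicle mean for Ddx58, Oas2, Dtx3l and Trim25.

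The height of BAPN 2 is described by role, and differences between roles were not tested. All 3 oligoadenylate synthetases were more than 1.5 times above every other library, with ratios from 1.52 to 2.57, as were 6 of 10 antiviral effectors, whose ratios reached 3.29 for Rsad2. Of 6 members grouped as interferon-inducible GTPases 1 passed the same mark (Irgm, 1.80), and their ratios started at 1.05. The GTPases Mx1 and Mx2, counted among the effectors, had ratios of 3.25 and 1.97. The same mark was passed by 2 of 3 RNA sensors, 4 of 7 genes of the ISG15 class and 3 of 5 other induced proteins. Among 5 transcription factors Irf7 stood at 2.37 and Irf1 and Irf8 at 0.94 and 0.92, below the highest of the others. Markers of other cell types were read in the same library. The summed smooth muscle markers of BAPN 2 (4153 CPM) were well above the other BAPN libraries (1630 to 2203 CPM) and inside the vehicle range (3110 to 5852 CPM). BAPN 2 was the highest library in none of the 5 leukocyte, 8 macrophage and monocyte, 6 dendritic cell, 2 plasmacytoid dendritic cell, 8 T cell and 2 neutrophil markers, in 2 of 5 NK and cytotoxic cell markers and in 1 of 3 B and plasma cell markers. Its summed leukocyte markers (2896 CPM) were the lowest of the BAPN group. The part of wall or leukocyte content in its height was not tested. The labels give BAPN 2 the same tissue, day, sex and treatment as BAPN 1 and BAPN 3.

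In the comparison of 4 BAPN with 4 vehicle rats, 5 members rose and 0 fell at an FDR below 0.05 (edgeR). The 5 were Ifit3, Usp18, Samhd1, Ifi47 and Irf1. They make 12.8% of the 39, against 7.5% of all tested genes higher and 9.25% lower. DESeq2 called 13 of 39 higher (12.3% of all tested genes) and 0 lower (15.1%), adding Stat2, Dhx58, Oasl, Rsad2, Isg15, Herc6, Gbp4 and Ifi35 to the 5. Calls and FDR values given from here on are those of edgeR unless DESeq2 is named. At an unadjusted p under 0.05 in edgeR, 20 members were higher (51.3%, against 17.4% of tested genes) and 0 lower. Of tested genes 35.8% were under it in either direction. The median log2 fold change of the 39 was 0.60, against 0.02 for all tested genes, and 35 of 39 values were above 0, against 51.6% of tested genes. Without BAPN 2 the median was 0.31, against 0.01 for all tested genes, and 30 of 39 were above 0, against 51.2%. In that fit edgeR called 0 members in either direction, against 4.05% of tested genes higher and 10.5% in either direction. At an unadjusted p under 0.05, 9 members were higher (15% of tested genes) and 1 lower (33.1% of tested genes in either direction). Each of the 39 had a lower log2 fold change without BAPN 2, which follows from its height in these genes and is no separate result.

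**Figure D2:**
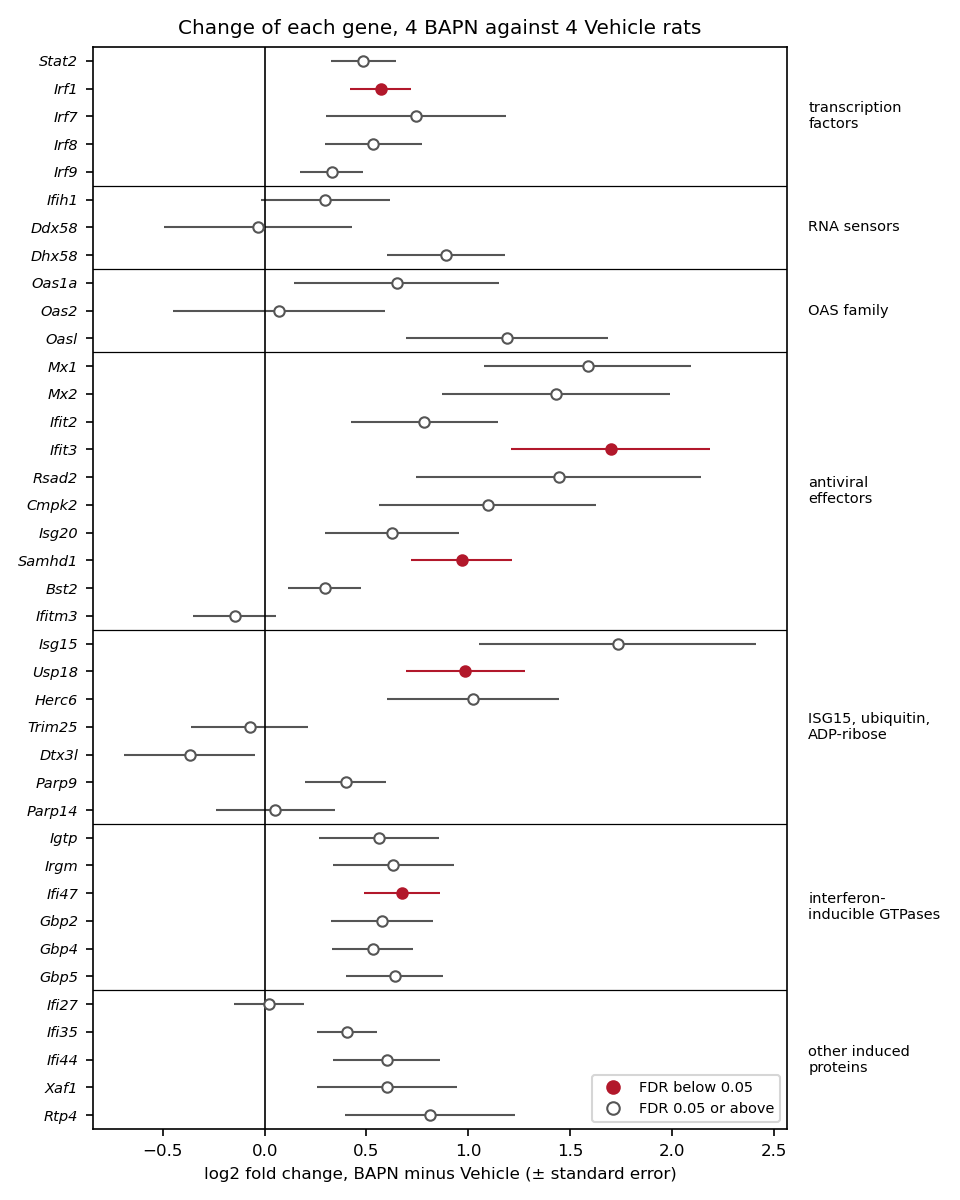
Points give the log2 fold change of each gene (BAPN minus vehicle, 4 rats each) by role, bars the standard error from limma-voom, and filled points an FDR below 0.05. Values ran from -0.37 for Dtx3l to 1.73 for Isg15, and the 6 genes grouped as GTPases lay close together, from 0.53 to 0.67.

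In 8 members every BAPN library lay above every vehicle library (20.5%, against 12.7% of all tested genes), and in 0 members every one lay below (11.9% of tested genes). They were Irf1, Stat2, Dhx58, Ifit3, Samhd1, Usp18, Ifi47 and Ifi35. For each, the exact two-sided permutation test over the 70 arrangements gave p = 0.0286, the smallest that 4 against 4 allows. Any gene whose groups do not overlap gets this p, so it adds nothing to the separation itself.

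Among the transcription factors 1 of 5 rose, against 7.5% of tested genes. Irf1, which interferon-γ induces and which drives many later genes, was at 102, 96.5, 87.6 and 78.5 CPM in BAPN 1 to BAPN 4 and at 46.8, 70.6, 63.9 and 64.5 CPM in Vehicle 1 to Vehicle 4. Its mean was 91.2 ± 10.4 in the BAPN group and 61.5 ± 10.3 CPM in the vehicle group (SD, n = 4), which is 0.57 on the log2 scale (standard error, SE, 0.15 and FDR 0.030). BAPN 2 was not the highest library here, and without it the value was 0.53 (FDR 0.0661). Stat2, the STAT protein particular to type I and type III signaling, was at 146, 189.6, 113 and 123 CPM with BAPN and at 101, 111, 89.5 and 108 CPM with vehicle. The groups did not overlap, yet the change of 0.49 missed the threshold (SE 0.16, FDR 0.0707) and was 0.31 without BAPN 2.

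Irf7, the factor that amplifies type I interferon production, was at 148, 462, 116 and 132 CPM with BAPN and at 74.6, 148, 95.4 and 195 CPM with vehicle. A single library made the difference between the means, since Vehicle 4 lay above BAPN 1, BAPN 3 and BAPN 4. The log2 fold change was 0.74 (SE 0.44, FDR 0.287) and 0.03 without BAPN 2 (FDR 0.952). Irf9, which carries the DNA contact of the STAT complex, was at 64.3, 88.9, 53.7 and 58.0 CPM with BAPN and at 49.7, 53.2, 52.7 and 55.4 CPM with vehicle, with a change of 0.33 (SE 0.16, FDR 0.161), or 0.14 without BAPN 2. Irf8, a factor of myeloid and B cells, had a log2 fold change of 0.53 (FDR 0.126), with Vehicle 3 above BAPN 3 and BAPN 4.

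The 3 cytoplasmic RNA sensors were all highest in BAPN 2, against 8.41% of tested genes. Of these sensors edgeR called none, against 7.5% of tested genes called higher. Dhx58, the sensor LGP2, was at 33.6, 69.7, 33.7 and 33.9 CPM with BAPN and at 20.04, 27.8, 17.6 and 26.8 CPM with vehicle. All BAPN libraries were higher, with 3 of them close together, and the log2 fold change was 0.89 (SE 0.29, FDR 0.0527) or 0.54 without BAPN 2 (FDR 0.0809). DESeq2 called it (FDR 0.0147). Ddx58, the sensor RIG-I, was at 16.8, 30.3, 6.39 and 12.0 CPM with BAPN and at 15.3, 19.0, 11.3 and 21.4 CPM with vehicle. It held both the highest and the lowest value in the BAPN group, and its change of -0.03 (SE 0.46, FDR 0.964) became -0.52 without BAPN 2. Ifih1, the sensor MDA5, had a value of 0.30 (FDR 0.4996), which was -0.07 without BAPN 2. The oligoadenylate synthetase family, enzymes that make short oligoadenylates on sensing double-stranded RNA, had log2 fold changes of 1.19 for Oasl, 0.65 for Oas1a and 0.07 for Oas2 (FDR 0.0948, 0.317 and 0.930), and without BAPN 2 these were 0.53, -0.04 and -0.60. Of these DESeq2 called Oasl (FDR 0.0319).

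Among 10 antiviral effectors 2 rose, against 7.5% of tested genes. Ifit3, a partner of the RNA-binding IFIT proteins, was at 50.7, 126, 32.2 and 41.0 CPM with BAPN and at 13.3, 13.1, 19.8 and 30.7 CPM with vehicle. The lowest BAPN library lay just above the highest vehicle library. Its mean was 62.4 ± 42.9 and 19.2 ± 8.23 CPM (SD, n = 4), with a log2 fold change of 1.70 (SE 0.49, FDR 0.0353), the largest of the called members. Without BAPN 2 the change was 1.09 (FDR 0.0556). Samhd1, which breaks down deoxynucleotides, was at 63.8, 73.9, 34.6 and 50.2 CPM with BAPN and at 22.1, 30.3, 30.1 and 31.3 CPM with vehicle. Its log2 fold change of 0.97 (SE 0.25, FDR 0.0247) was 0.79 without BAPN 2 (FDR 0.0526).

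Mx1, Mx2 and Rsad2 had large differences with large errors. Mx1, a dynamin-like GTPase that blocks viral replication, was at 132, 428, 71.8 and 123 CPM with BAPN and at 35.7, 64.7, 45.2 and 106 CPM with vehicle, which gave a log2 fold change of 1.59 (SE 0.51, FDR 0.0736). Mx2, its relative, was at 253, 498, 85.5 and 144 CPM with BAPN and at 40.3, 66.0, 87.2 and 170.4 CPM with vehicle, a change of 1.43 (SE 0.56, FDR 0.109). Rsad2, the enzyme viperin, was at 20.9, 68.8, 10.6 and 16.5 CPM with BAPN and at 8.99, 7.27, 8.88 and 17.8 CPM with vehicle, a change of 1.44 (SE 0.70, FDR 0.101). In all 3 Vehicle 4 exceeded BAPN 3, and without BAPN 2 the changes were 0.78, 0.81 and 0.57. Cmpk2, the nucleotide kinase gene next to Rsad2, and Ifit2, next to Ifit3, had changes of 1.09 and 0.79 (FDR 0.120 and 0.173), which were 0.42 and 0.26 without BAPN 2.

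The membrane proteins among the effectors had the smallest differences of this class with all libraries in the fit. Ifitm3, which blocks viral entry, was at 300.0, 344.6, 268 and 238 CPM with BAPN and at 354, 238, 266 and 416 CPM with vehicle. The groups lay across each other, with Vehicle 4 the highest of all libraries, and the change was -0.15 (SE 0.20, FDR 0.620). Bst2, the tetherin that holds budding viruses, was at 0.29 (FDR 0.267) and Isg20, an exonuclease, at 0.63 (FDR 0.215) on the log2 fold change scale. Without BAPN 2 the values of Ifitm3, Bst2 and Isg20 were -0.26, 0.18 and 0.47.

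**Figure D3:**
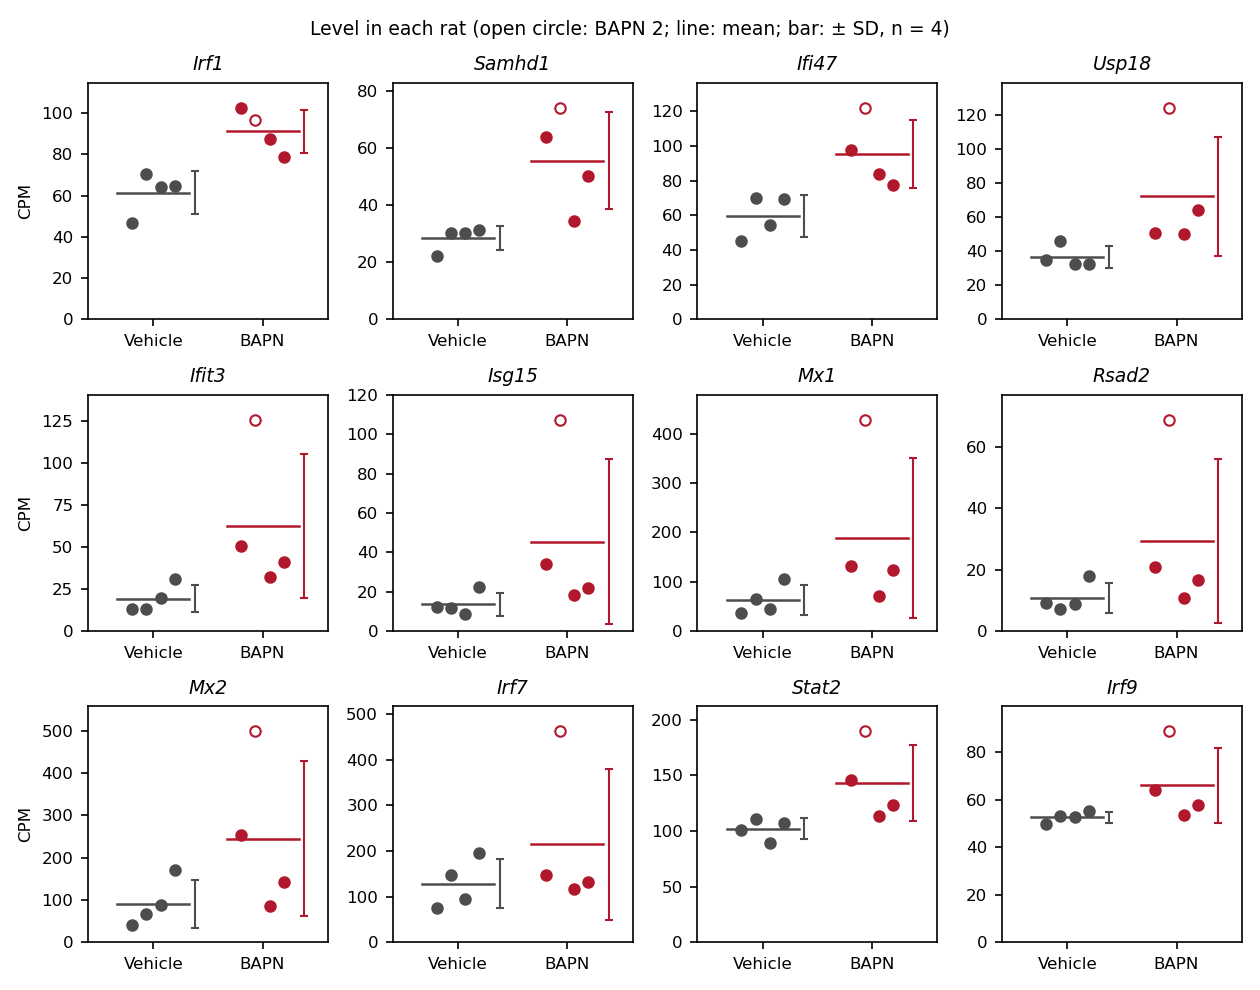
Points give the CPM of each rat for 12 members, with open circles for BAPN 2, lines for group means and bars for ± SD (n = 4); each axis starts at 0. The groups are apart for Irf1, Samhd1, Ifi47, Usp18, Ifit3 and Stat2, and overlap for Isg15, Mx1, Rsad2, Mx2, Irf7 and Irf9.

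Of 7 genes of the ISG15, ubiquitin and ADP-ribose systems 1 rose, against 7.5% of tested genes. Usp18, which removes ISG15 from proteins and dampens type I receptor signaling, was at 50.7, 124, 49.96 and 64.5 CPM with BAPN and at 35.2, 46.1, 32.4 and 32.4 CPM with vehicle. The groups did not overlap, and the log2 fold change was 0.99 (SE 0.29, FDR 0.0464) or 0.58 without BAPN 2 (FDR 0.0561). Isg15, the ubiquitin-like protein itself, was at 34.3, 107, 18.4 and 21.7 CPM with BAPN and at 12.0, 11.9, 8.67 and 22.2 CPM with vehicle. Vehicle 4 exceeded BAPN 3 and BAPN 4, and the largest change of the 39, 1.73, missed the threshold (SE 0.68, FDR 0.0622). It was called by DESeq2 (FDR 0.00720) and was 0.85 without BAPN 2 (FDR 0.123). Herc6, an ISG15 ligase of rodents, had a log2 fold change of 1.02 (FDR 0.0848), or 0.45 without BAPN 2.

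A pair of genes of the same class had values below 0. Dtx3l, a ubiquitin ligase that works with Parp9, was at 20.6, 27.5, 10.1 and 12.7 CPM with BAPN and at 23.5, 27.4, 16.8 and 23.8 CPM with vehicle, a change of -0.37 (SE 0.32, FDR 0.403). Trim25, the ligase that activates RIG-I, was at 56.6, 54.4, 23.2 and 38.8 CPM with BAPN and at 51.1, 50.6, 33.2 and 47.1 CPM with vehicle, a change of -0.07 (SE 0.29, FDR 0.863). In both genes BAPN 3 was the lowest of the 8 libraries. The ADP-ribosyltransferases Parp9 and Parp14 had changes of 0.40 and 0.05 (FDR 0.199 and 0.912). Without BAPN 2 the values of Dtx3l, Trim25, Parp9 and Parp14 were -0.67, -0.21, 0.13 and -0.26. Dtx3l and Parp9 overlap in the RefSeq gene table, and since the strand setting of the counting was not given, reads on the overlap could belong to either.

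The 6 members grouped here as interferon-inducible GTPases, which attack the vacuoles of intracellular microbes, were the most even class. Mx1 and Mx2, also GTPases, were counted among the antiviral effectors, with changes of 1.59 and 1.43. Ifi47 was at 97.7, 122, 83.9 and 77.6 CPM with BAPN and at 45.2, 69.8, 54.3 and 69.4 CPM with vehicle. It rose by a log2 fold change of 0.67 (SE 0.19, FDR 0.0377), and without BAPN 2 the value was 0.52 (FDR 0.0823). The other five (Igtp, Irgm, Gbp2, Gbp4 and Gbp5) had changes from 0.53 to 0.64 and FDR values from 0.0820 to 0.202. Without BAPN 2 the 6 values lay between 0.30 and 0.52. Gbp2 and Gbp4 are neighbors of similar sequence, and how reads shared by such genes were counted was not given.

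Of 5 other interferon-induced proteins edgeR called none, against 7.5% of tested genes called higher. Ifi35 was at 22.1, 30.2, 24.4 and 22.1 CPM with BAPN and at 19.2, 18.8, 19.7 and 16.9 CPM with vehicle. All BAPN libraries were higher, by a log2 fold change of 0.40 (SE 0.15, FDR 0.0669), and DESeq2 called it (FDR 0.0405). Ifi27 was at 270.3, 385, 315 and 251 CPM with BAPN and at 286, 314, 245 and 359 CPM with vehicle, a change of 0.02 (SE 0.17, FDR 0.942), and its groups lay across each other. Ifi44, Xaf1 and Rtp4 had changes of 0.60, 0.60 and 0.81 (FDR 0.125, 0.207 and 0.167). Without BAPN 2 these were 0.23, 0.27 and 0.22, and Ifi27 was at -0.12.

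**Figure D4:**
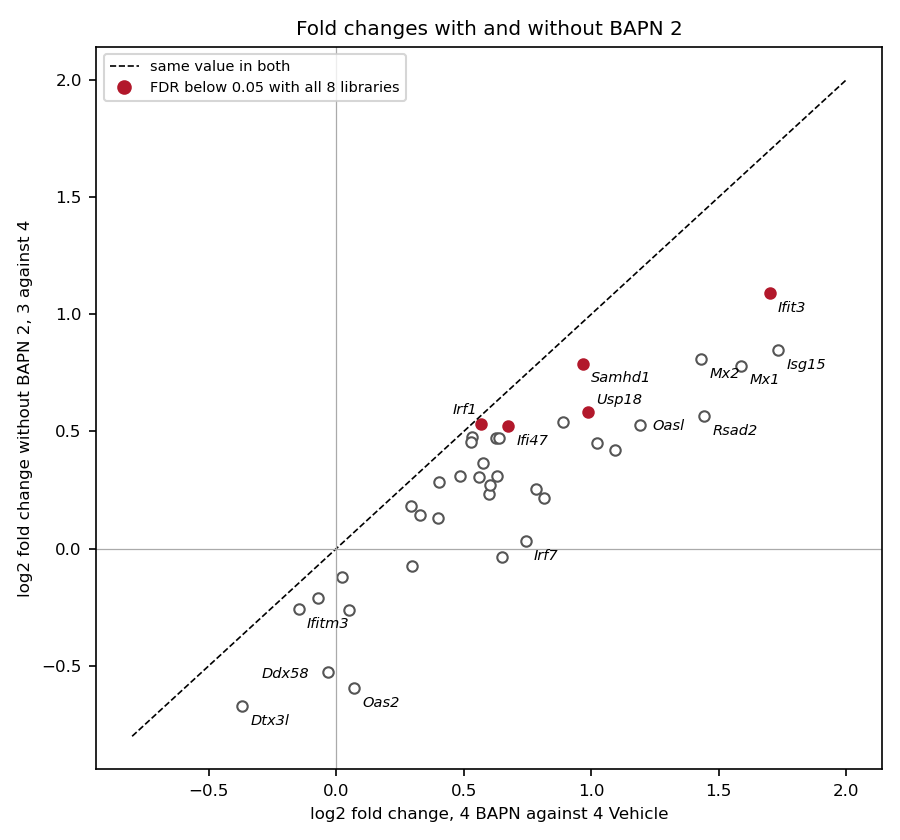
Each point is 1 of the 39 genes, with the log2 fold change over 8 libraries on the horizontal axis and that without BAPN 2 on the vertical axis; filled points had an FDR below 0.05 over 8 libraries and the dashed line marks equal values. All 39 points lie below the line, which follows from the height of BAPN 2 in these genes. Irf1 moves least among the called genes (0.57 to 0.53), and Irf7 and Oas2 drop to 0.03 and -0.60.

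The calls were narrow ones. With each library left out in turn, Samhd1 kept its call in 4 of 8 fits, and Irf1, Ifit3, Usp18 and Ifi47 in 2 each, while all 5 had a log2 fold change above 0 in all 8. The number of members called was 0 without BAPN 2, Vehicle 1 or Vehicle 3, against 4.05%, 1.28% and 4.42% of tested genes called higher. In these fits 9, 10 and 11 members were higher at an unadjusted p under 0.05, against 15%, 13.5% and 16.3% of tested genes. The number called was 1 without BAPN 1 (5% of tested genes called higher), 2 without BAPN 3 (2.59%) or BAPN 4 (3.36%), 4 without Vehicle 4 (3.57%) and 6 without Vehicle 2 (7.94%). With sex as a covariate 0 were called by edgeR (15 higher at an unadjusted p under 0.05, against 14.9% of tested genes), with FDR values of the 5 from 0.0516 to 0.0887. After thinning to equal totals 5 were called (6.83% of tested genes).

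The motif classes of the promoters did not order the changes by the presence of ISRE letters. The median log2 fold change was 0.60 in 15 members with ISRE letters, from -0.37 to 1.70, with 1 of them called (Ifit3), against 7.5% of tested genes called higher. It was 0.56 in 7 members with GAS but no ISRE letters, from 0.05 to 0.97, with 3 of them called (Irf1, Samhd1 and Ifi47). It was 1.02 in 9 members with neither, among them Mx1 and Rsad2, with 0 called by edgeR (FDR 0.0669 to 0.863). DESeq2 called Stat2, Oasl, Rsad2, Herc6 and Ifi35 among these 9 (FDR 0.0299 to 0.0435), against 12.3% of tested genes called higher. With DESeq2, Gbp4 joined Ifit3 in the ISRE class, and the calls in the GAS class were the same. Without BAPN 2 the medians were 0.23, 0.48 and 0.42. The differences between classes were not tested, and letters missing from this window say nothing of sites elsewhere. Oas1a, Bst2, Ifitm3 and Irgm held both motifs, which share 3 bases in Bst2.

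**Figure D5:**
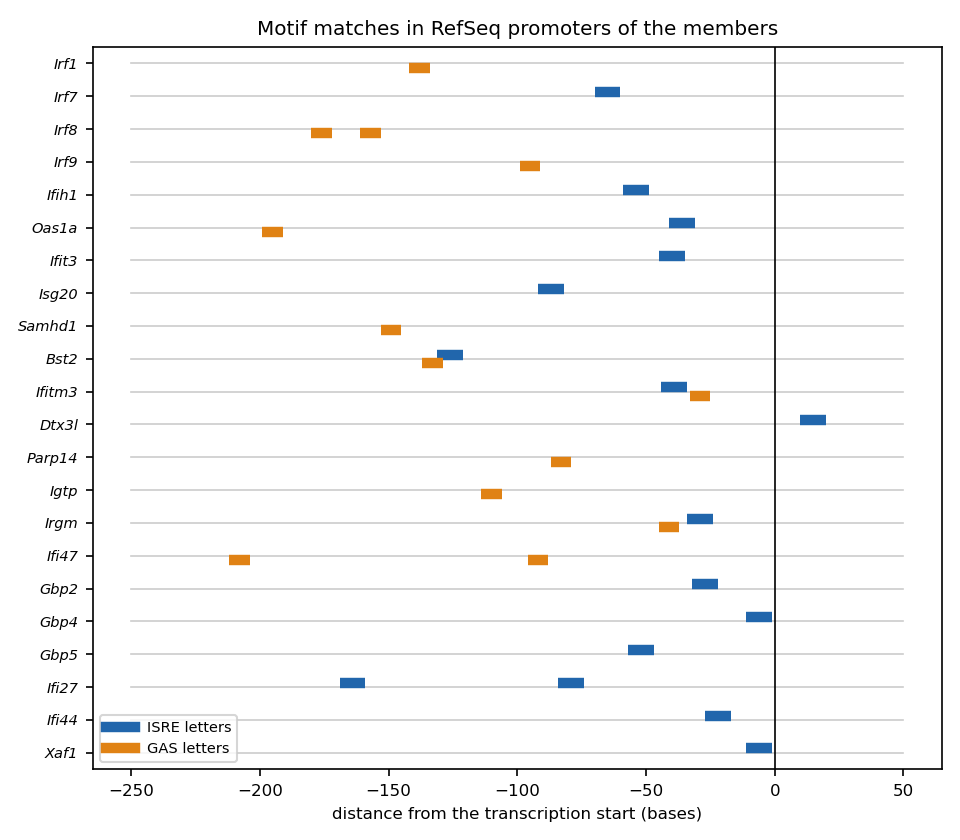
Each line is the RefSeq promoter of a member with at least 1 match, from 250 bases before to 50 bases after the transcription start at 0; blue marks ISRE letters and orange GAS letters. Most ISRE matches lie within 100 bases before the start, Dtx3l has its match after the start, and Irf8, Ifi47 and Ifi27 have 2 matches of 1 motif.

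The upstream part of the pathway was read from other genes chosen by name. Of 12 interferon genes counted, 0 reached the filter, and 7 had 0 reads in all 8 libraries, which allows up to 3 reads, or 0.0574 to 0.153 CPM by library. Ifng, interferon-γ, had 16, 22, 1 and 4 reads with BAPN and 0, 7, 0 and 5 with vehicle, too few to compare at this depth. Ifnb1 had 2 reads in BAPN 3 alone, and Ifnk 7 in BAPN 2 alone. The interferon-α genes are near-identical copies, so reads of one could be lost or given to another.

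Of 6 interferon receptor chains 2 rose, against 7.5% of tested genes. Ifngr2, the signaling chain of the interferon-γ receptor, had a log2 fold change of 0.64 (SE 0.19, FDR 0.0457), and Il10rb, shared by the interferon-λ and interleukin receptors, 0.61 (SE 0.16, FDR 0.0299). With each library left out in turn they kept their calls in 1 and 3 of 8 fits. Of 5 Janus kinases and STAT proteins 1 rose, against the same 7.5%. Jak2, the kinase bound to Ifngr2, was at 179, 190.1, 177 and 167 CPM with BAPN and at 107, 115, 116 and 123 CPM with vehicle (log2 fold change 0.63, SE 0.10, FDR 0.00946). Unlike the members it kept its call in all 8 fits with a library left out, and without BAPN 2 it was 0.59.

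Of 8 inhibitors 2 rose, against 7.5% of tested genes. Ptpn2, a phosphatase that acts on Janus kinases, had a log2 fold change of 0.87 (SE 0.16, FDR 0.0127), and Ptpn6, the leukocyte phosphatase SHP-1, 0.73 (SE 0.15, FDR 0.0170). They kept their calls in 8 and 7 of the 8 fits with a library left out. Of 15 nucleic acid sensors and adaptors, Aim2, a DNA sensor of the inflammasome, rose by 1.23 (SE 0.36, FDR 0.0376) and Tlr9, a DNA receptor of endosomes, fell by 0.99 (SE 0.29, FDR 0.0429), against 7.5% of tested genes called higher and 9.25% lower. They kept their calls in 3 and 1 of the 8 fits. Of 5 other interferon regulatory factors edgeR called 0 (Irf2 was closest, with 0.42 and FDR 0.0572).

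A second list of 50 tested interferon-stimulated genes, outside the 39, was also chosen with earlier results of these data known. It had 9 higher and 1 lower call, against 7.5% and 9.25% of tested genes, and a median of 0.29, against 0.02. Of these 50, 43 were above 0 (86%, against 51.6% of tested genes), and 32 (64%) were highest in BAPN 2, against 8.41% of tested genes. Slfn2, a regulator of T cell and myeloid quiescence, rose by 0.87 (SE 0.19, FDR 0.0202). Epsti1 rose by 0.78 (SE 0.19, FDR 0.0319) and Nampt, the enzyme that limits NAD recycling, by 0.77 (SE 0.13, FDR 0.00965). Tnfsf10, the death ligand TRAIL, fell by 0.94 (SE 0.22, FDR 0.0247). Of these 4 Nampt kept its call in all 8 fits with a library left out, Slfn2 in 6, Tnfsf10 in 2 and Epsti1 in 1.

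Some leukocyte markers were higher and some lower in the same veins. Cd53 rose among 5 leukocyte markers, Aif1 among 8 macrophage and monocyte markers, Cd2 and Cd8a among 8 T cell markers, and Cd79b and Mzb1 among 3 B and plasma cell markers, against 7.5% of tested genes called higher and 9.25% lower. Zbtb46, 1 of 6 dendritic cell markers, and Tcf4, 1 of 2 plasmacytoid dendritic cell markers, fell by 0.80 and 0.71 (FDR 0.016 and 0.0299). Of the 6 dendritic cell markers 4 were above 0, with a median of 0.32. Siglech, the other plasmacytoid marker, was at 0.50 (FDR 0.682). The summed B and plasma cell markers were at 145, 181, 199.6 and 5.82 CPM in BAPN 1 to BAPN 4 and at 9.70 to 33.5 CPM with vehicle, so that BAPN 4 lay below the vehicle range. The summed macrophage and monocyte markers, most of them Lyz2 reads, were at 27138 to 40830 CPM with BAPN and 5372 to 22269 CPM with vehicle. The summed T cell markers, most of them Cd4 reads, were at 374 to 458 CPM with BAPN and 303 to 515 CPM with vehicle. Cd4 had a log2 fold change of -0.07 (FDR 0.811), while the other 7 T cell markers were above 0 and the median of the 8 was 1.17. Summed NK and cytotoxic cell markers were at 48.7 to 83.3 and 15.9 to 56.1 CPM. Dendritic cell markers were at 137 to 220.3 and 86.0 to 166 CPM. Plasmacytoid dendritic cell markers, most of them Tcf4 reads, were at 36.7 to 48.0 and 45.2 to 80.1 CPM, with Siglech at 4.28 ± 3.21 and 3.01 ± 2.59 CPM (SD, n = 4). The part of leukocyte content in the changes of the 39 genes was not tested.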

How the data were processed

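The authors extracted total RNA, required an integrity score above 5 in quality control, prepared stranded libraries after ribosomal RNA depletion and deposited whole-number read counts per gene for each rat, without normalization. The submitters' processing notes name bcl2fastq 2.17, Trim Galore and STAR; the counter, its strand setting, the build and any batches were not given in the sources used here.

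Genes with a base mean (mean of counts over DESeq2 size factors) of at least 100 were tested, after the study's methods. edgeR 4.0.16 (TMM, quasi-likelihood F test, treatment alone) gave log2 fold changes, with Benjamini-Hochberg FDR over all 11682 genes in R 4.3.3; limma 3.58.1 (voom) gave standard errors and DESeq2 1.42.0 an alternative. CPM used TMM library sizes, and exact permutation tests used log2 CPM with a prior count of 2. Within groups, libraries differed by 68.6 to 321 times counting noise (chi-square per degree of freedom). Each library is 1 rat. The steps were tested on simulated counts. The members and lists were chosen with earlier results of these data known. Values in all libraries are given for called members, the 5 members at each end of the log2 fold changes, Irf1, Irf7, Irf9, Stat2, Isg15 and members whose groups did not overlap; in other lists the called genes are named, or the 4 with the largest change. Other values were named after they were seen. Motifs were searched in RefSeq promoters of GRCr8, with no coordinates taken from the deposited files.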

Additional observations from a re-analysis of the deposited data

Results flagged for a closer look

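Of 78 groups of 4 libraries (39 genes in both treatments), 5 held a library far from the other 3 by Dixon's test on log2 CPM, where chance gives about 1 in 20. All 3 of those in the BAPN group were BAPN 2, which had 69.7 CPM of Dhx58 (33.6 to 33.9 in the other BAPN libraries), 72.6 CPM of Herc6 (23.2 to 26.0) and 79.4 CPM of Rtp4 (24.3 to 28.1). In the vehicle group, Samhd1 was low in Vehicle 1 (22.1 CPM, against 30.1 to 31.3) and Gbp4 was high in Vehicle 2 (14.0 CPM, against 9.41 to 9.65).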

How the results depend on the processing

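The count of 5 members higher (7.5% of all tested genes) became 13 with DESeq2 (12.3%), 3 with limma-voom (6.45%), 2 with total counts only (4.31%), 0 with sex as a covariate (3.33%), 0 in females alone (0.3%; 3 against 2 rats, with 16 higher at an unadjusted p under 0.05, against 11.8%), and 0 to 6 with a library left out. It stayed 5 with RLE or upper-quartile normalization, with filterByExpr, without a filter and with equal library totals (3.51% to 7.33%). The 17 calls among 89 genes of the other pathway lists, in either direction (16.8% of all tested genes), became 33 with DESeq2 (27.4%), 10 with total counts only (14.3%), 6 with sex as a covariate (7.96%), 0 in females alone (0.762%; 25 at an unadjusted p under 0.05, against 24.5%), and 3 to 23 with a library left out (3.4% to 19%); these were added after seeing the data. No setting called a member lower, and the median, 0.60 in the main fit, ran from 0.31 without BAPN 2 to 0.79 without Vehicle 4. These moves were smaller than the pooled SD of the library medians within groups (0.365), which BAPN 2 itself widens. Leaving out a library leaves fewer rats, and the share of all genes called higher, 7.5% over 8 libraries, was then 1.28% to 5%, or 7.94% without Vehicle 2; the causes were otherwise not tested.

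Replicate numbers were shared between groups, but the deviations of same-numbered libraries from their group means correlated at 0.09, -0.26, 0.27 and -0.14, and 1 of 4 was closest to its own number. With the replicate number as a block, 1 of 39 members (Usp18, higher) and 4 pathway genes were called, against 200 genes higher (1.71%) and 356 lower among the 11682 tested.

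Values near 0 turned sign, and so did Ifih1 and Oas1a (0.30 and 0.65 over 8 libraries) without BAPN 2. Oas2 was -0.065 with limma-voom, -0.036 with sex as a covariate and -0.11 with the replicate block, Parp14 -0.063 with limma-voom and -0.056 with the block, Ifi27 -0.025 with total counts only and -0.022 with sex as a covariate, Ddx58 0.059 in females alone and 0.030 with equal totals, and Ifitm3 0.038 in females alone. With a library left out the ranges were -0.074 to 0.49 for Ifih1, -0.036 to 0.89 for Oas1a, -0.60 to 0.33 for Oas2, -0.26 to 0.27 for Parp14, -0.12 to 0.12 for Ifi27, -0.52 to 0.23 for Ddx58, -0.23 to 0.13 for Trim25 and -0.26 to 0.0071 for Ifitm3.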
